A study of Mus musculus with 20 samples.

Results

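The genes described here encode proteins of the cytosolic ribosome in the mouse. A gene was taken where a probe set carries a single annotated symbol that reads Rpl or Rps and a digit, or Rplp0, Rplp1, Rplp2 or Rpsa, with the Rps6k kinases and pseudogenes left out. This gave 49 probe sets for 35 genes, 17 of the large subunit and 18 of the small subunit, among 8251 genes with a single symbol and 12422 probe sets. Each gene is represented by its probe set with the highest mean, and 10 genes have more than 1. A further 39 probe sets carry several symbols, at least 1 of them a ribosomal protein. They cover 31 other ribosomal protein genes, are not members, and are given only as a group. Ribosomal protein genes have many processed pseudogenes. The letters f and s in a probe set's name mark probes that can also match related sequences, and r marks a set chosen with rules of probe selection dropped. Values of single members are therefore uncertain where close copies exist. Of the members tested below, Rps24 and Rps13 have a probe set with r, Rpl41 and Rps28 with f, and Rpl7 and Rps4l with s.

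The ribosome translates messenger RNA: the small subunit reads the message and the large subunit joins the amino acids. Most of its proteins are essential, and their messages are among the most abundant of any cell. These messages begin with a run of pyrimidines, the TOP sequence, by which growth signalling through mTOR controls their translation. Changes in that translation need not alter the amount of message, which is what an array measures.

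The series concerns sleep apnea and glucose metabolism, on 20 short-oligonucleotide arrays of total RNA. Subcutaneous adipose tissue was measured on 8 arrays, 2 in each of 4 groups that cross Con or Glucose with hypoxia or non-hypoxia. These mice were 12 weeks old, and the labels name C57BL-6J and C57BL-6J-Lep, the second with a change in the leptin gene, without saying which strain lay on which array or what Con and Glucose mean. Hypoxia was intermittent: oxygen fell from 20.9% to 5% over 30 seconds and returned to 20% over 30 seconds, for 16 hours a day on 5 days. The other 12 arrays held brain, heart, lung and skeletal muscle of C57BL-6J mice, 20 weeks old, with 1 array per tissue for control, sleep fragmentation and hypoxia. Replicates in adipose tissue are called number 1 and number 2. The labels do not say that arrays came from separate mice, so p-values measure the spread between arrays, which may be technical. On the other 12 arrays that spread also holds any difference between tissues in the effect of a condition.

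The deposited intensities had a trimmed mean of about 800 on every array but the brain hypoxia array, where it was 2670. On each adipose array 17.4% to 21.1% of values were 0 or negative, and in the other tissues none were. For Actb, signal at the 3′ end over signal at the 5′ end was 0.756 to 1.70 on the adipose arrays. It was 0.0288 to 0.0635 on the 3 lung arrays and 0.0343 on the brain hypoxia array. The same ratio for Gapdh was 0.821 to 0.915 in lung and 1.60 on the brain hypoxia array. On the muscle arrays Gapdh had 0.00899 to 0.264 and Actb 1.203 to 1.525. A loss of signal at the 5′ end would raise the ratio, so a low ratio is not read as poor RNA. The genes also disagree on these arrays. Adipose values under an intensity of 97.7 were set to it (log2 6.61, the floor). In adipose tissue 27 of the 35 members passed the filter on dim probe sets. Rpl32, Rpl35a, Rpl38, Rpl39, Rps14, Rps15, Rps20 and Rps27l did not, and Rpl35a and Rps27l were at the floor on all 8 arrays. In the other tissues 25 passed, without Rpl32, Rpl38, Rpl39, Rpl39l, Rpl7l1, Rps13, Rps14, Rps15, Rps20 and Rps27l. Every fit tested 7453 probe sets.

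Most members had less ribosomal protein message on Glucose arrays than on Con arrays. The log2 difference was negative for 23 of the 27 members tested, with a median of -0.81, while over all probe sets the median was 0.04 and 47.3% were negative. By limma, 5 members fell at an adjusted p of 0.05: Rps24, Rps7, Rps19 and Rps3 of the small subunit and Rpl19 of the large subunit. Rpl39l, a paralog of Rpl39 best known from testis, rose. Of all probe sets 7.58% passed in either direction, 3.54% lower and 4.04% higher. In bulk tissue, fewer cells of a type and less message per cell cannot be told apart.

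**Figure D1:**
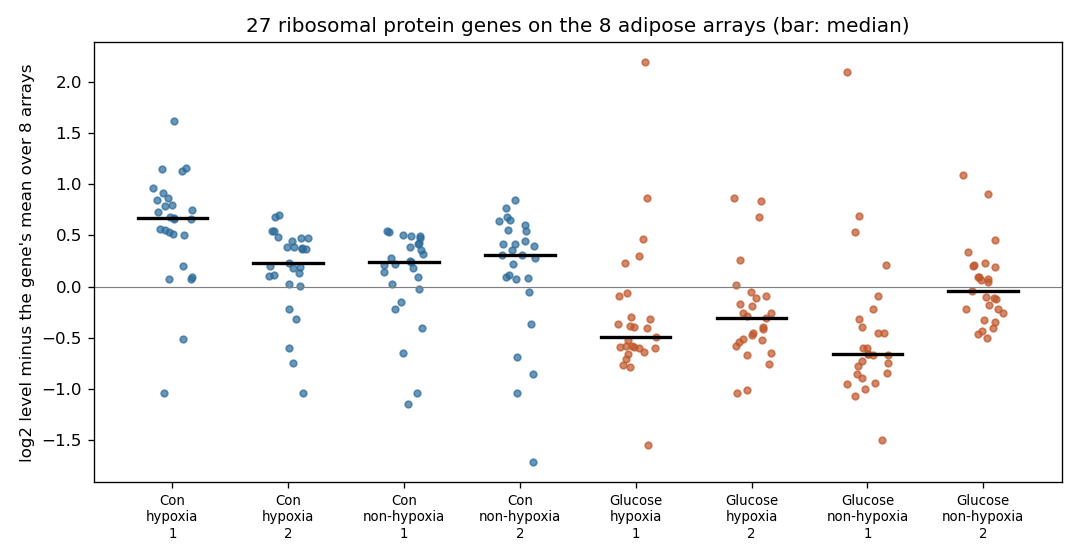
Log2 level of each of the 27 members tested on each of the 8 adipose arrays, minus that gene's mean over the 8 arrays, with points for genes and a black bar for the median of an array. The medians of the 4 Con arrays lie between 0.23 and 0.67 and those of the 4 Glucose arrays between -0.66 and -0.05.

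Array by array, the median of the 27 members stood at 0.67 and 0.23 above each gene's mean on the Con hypoxia arrays and at 0.24 and 0.31 on the Con non-hypoxia arrays. It stood at -0.50 and -0.30 on the Glucose hypoxia arrays and at -0.66 and -0.05 on the Glucose non-hypoxia arrays. Every Con array thus had a higher median than every Glucose array, and the Glucose non-hypoxia array number 2 came closest to the Con arrays.

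Of the 5 genes that fell 4 are of the small subunit, which holds 18 of all 35 members. These are too few to read as a difference between the subunits. Rps24, one of the genes mutated in Diamond-Blackfan anaemia, read 21928 and 15496 on Con hypoxia, 17066 and 21605 on Con non-hypoxia, 6941 and 8422 on Glucose hypoxia and 6983 and 8451 on Glucose non-hypoxia. All 4 Con arrays lay above all 4 Glucose arrays, with a log2 difference of -1.30 ± 0.24 (standard error of the fit, 4 arrays a side, adjusted p = 0.0215), or 2.46-fold lower. Rps7, which can also bind the p53 regulator Mdm2, read 15755, 11522, 10017 and 8885 on the Con arrays in the same order and 5438, 3571, 3972 and 5710 on the Glucose arrays. Again the sides did not overlap, at -1.30 ± 0.27 (adjusted p = 0.0297).

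Rps19, the gene most often mutated in Diamond-Blackfan anaemia, read 14915, 11544, 11976 and 11238 on Con and 6287, 5202, 4603 and 6252 on Glucose. It fell by 1.16 on the log2 scale (standard error 0.24, adjusted p = 0.0297), and the lowest Con array read well above the highest Glucose array. Rps3, which lies near the entry of the message into the small subunit, read 12127, 9347, 7079 and 7807 on Con and 4064, 4418, 4681 and 5532 on Glucose. It passed most narrowly, at -0.94 ± 0.22 (adjusted p = 0.0485), without overlap.

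Among large-subunit members Rpl19 read 17806, 14931, 14430 and 15717 on Con and 7182, 6354, 6797 and 9468 on Glucose. It fell by 1.09 on the log2 scale (standard error 0.23, adjusted p = 0.0332), and the gap between the sides was wider than the range of either. A second, dimmer probe set of Rpl19 differed by 0.11, and one of Rps24 by 0.07, so for both genes the fall was seen on the brighter probe set alone.

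The member with the most negative difference, Rpsa, did not pass. Rpsa, a small-subunit protein also known as a laminin receptor precursor, read 13535, 6131, 6206 and 7051 on Con and 1502, 3695, 1556 and 4551 on Glucose, so the sides did not overlap, but the arrays within each side lay far apart. Its difference was -1.63 ± 0.47 (adjusted p = 0.0893). Rpl37a (-0.95, adjusted p = 0.0518), Rps18 (-0.93, 0.0529), Rpl7 (-0.89, 0.0548), Rps10 (-0.89, 0.0612) and Rps3a1 (-1.01, 0.0671) lay just outside the threshold, each without overlap. Rplp0, the core of the stalk that recruits translation factors and a common reference gene in PCR, differed by -0.82 ± 0.30 (adjusted p = 0.15), with 27494, 18373, 16221 and 24823 on Con and 10484, 12093, 9624 and 16979 on Glucose, where 1 Glucose array lay inside the Con range.

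**Figure D2:**
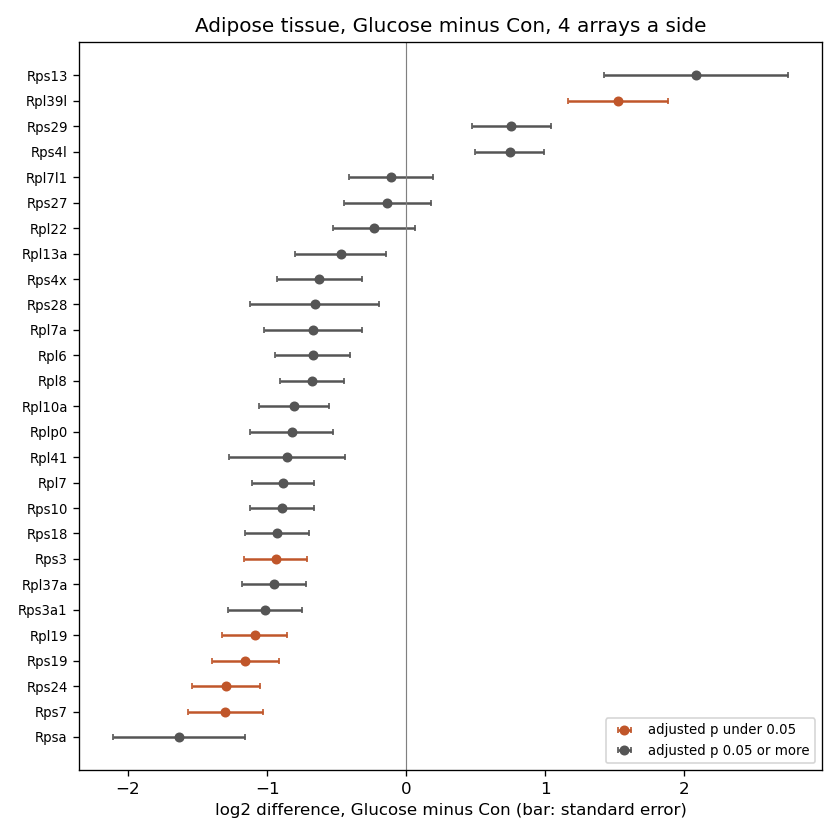
Log2 difference of Glucose minus Con for each of the 27 members tested in adipose tissue, with bars for the standard error of the fit and orange for an adjusted p under 0.05. From Rpsa at -1.63 to Rpl7l1 at -0.11 there are 23 members below 0, and Rps4l, Rps29, Rpl39l and Rps13 lie above 0.

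The 4 members with a positive difference were Rpl39l and Rps4l, which are paralogs of core ribosomal proteins, and the core proteins Rps29 and Rps13. Rpl39l read 340, 192, 205 and 53.1 on Con and 590, 588, 374 and 690 on Glucose, so every Glucose array was higher, at 1.52 ± 0.36 (adjusted p = 0.0461). Of its Con arrays, 1 lay at the floor, so the size of the difference depends on the floor. Rps4l, a paralog of the X-linked Rps4x, read 1229, 926, 874 and 638 on Con and 1422, 1381, 1870 and 1356 on Glucose, without overlap and at 0.74 ± 0.25 (adjusted p = 0.126). Its parent Rps4x differed by -0.62 ± 0.30 (adjusted p = 0.264). Rpl39, the parent of Rpl39l, was too dim to be tested.

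Rps29 differed by 0.75 ± 0.28 (adjusted p = 0.159), with 1 Con array at the floor. Rps13 was at or below the floor on all 4 Con arrays and 1 Glucose array and read 921, 863 and 378 on the others, so its fitted difference of 2.08 ± 0.66 (adjusted p = 0.112) depends on where the floor is set. It passed the filter on dim probe sets only through these Glucose arrays, so its positive sign is tied to the filter. Among other dim members, Rpl7l1, a paralog of Rpl7 that acts in ribosome assembly, differed by -0.11 ± 0.30, Rps27 by -0.14 ± 0.31 and Rpl22 by -0.23 ± 0.29, none of them past the threshold.

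In all, 14 members had every Glucose array below every Con array, and 2 had every one above, where over all probe sets 8.33% were apart in the lower and 11.4% in the higher direction. The probe sets shared by several genes went the same way: all 35 that were tested had negative differences, with a median of -0.87, 11 fell, and 25 had no overlap.

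The brightness of the probe set went with the direction among members. At a mean log2 level above 12, chosen after seeing the values, all 19 members had negative differences, between -1.63 and -0.62, and 5 fell. Of the 628 other probe sets above that level 55.7% were negative, with a median of -0.09, and 15 fell. Of the 8 dimmer members 4 were negative. The 99th percentile of probe sets outside the ribosomal protein group read 11570 to 15360 on the Con arrays and 9026 to 14370 on the Glucose arrays, so the top of the scale itself was lower on some Glucose arrays. After quantile normalization, which gives every array the same distribution, 23 of 27 members were still negative, with a median of -0.44 and 3 that fell. Whether the scaling at the top of the range has a part in the size of the difference was not tested beyond these settings.

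How many members passed depended on single arrays. With 1 array left out the median stayed between -0.98 and -0.60 and 22 or 23 members were negative, but the number that passed was 0 without the Con hypoxia array number 1, the Con non-hypoxia array number 2, the Glucose hypoxia array number 1 or the Glucose non-hypoxia array number 1. The probe sets past the threshold fell as well, from 565 of all 7453 to between 237 and 460. The number of members was 1 without the Con hypoxia array number 2 or the Glucose hypoxia array number 2, 2 without the Con non-hypoxia array number 1 and 4 without the Glucose non-hypoxia array number 2. Without both Con arrays of number 1 it was 0, at a median of -0.81, and 98 of all probe sets passed. All 6 members kept their sign under each of 20 alternatives, which include other scalings and fits within a code. Rps24 passed in 11 of them, Rps7 and Rps19 in 9 each, Rpl19 in 6, Rps3 in 4 and Rpl39l in 3, with adjusted p from 0.034 to 0.194 for Rpl39l and from 0.0264 to 0.43 for Rps3. With all probe sets of a gene averaged, the difference was -0.62 for Rps24 and -0.49 for Rpl19, and neither passed.

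The array titles also carry a code, s2 or s4, whose meaning the labels do not give, and each group held 1 array of either. Within the 4 s4 arrays the members' median was -1.09 and 22 of 27 were negative. Within the 4 s2 arrays it was -0.49 and 19 of 27 were negative. In either set 0 members passed in limma, with 18 and 6 at an unadjusted p under 0.05, and 0 of all 7453 probe sets passed. The difference between the codes, tested as an interaction, passed for 0 members in limma (5 at an unadjusted p under 0.05, smallest adjusted p = 0.538).

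Markers of several other cell types, though not of all, were lower on Glucose as well. Of 10 B cell markers tested all 10 were lower on Glucose and 8 fell, with a median of -2.29, among them the receptor chains Cd79a (-4.16) and Cd79b (-3.01). The summed intensity of the 12 B cell markers on the array was 17550 to 34460 on Con and 8544 to 16850 on Glucose, with 0 or 1 of them at the floor on each Con array and 4 to 6 on each Glucose array. Of 6 T cell markers tested 5 were lower and 3 fell, and 7 of the 10 on the array were at the floor on each Glucose array. Brown adipocyte markers were all 6 lower and 1 fell, but they were high on both Con arrays of number 1 alone (medians of 3.45 and 3.10 above the gene's mean, against -1.11 and 0.67 on number 2). Skeletal muscle fibre markers were lower on Glucose for 17 of 17 genes (median -0.76), with 0 past the threshold in limma, and their array medians ran from -3.00 on the Glucose non-hypoxia array number 1 to 1.82 on the Con non-hypoxia array number 2. Adipocyte markers were lower for 8 of 10 (median -0.41) and macrophage markers for 6 of 8 (median -0.50), again with 0 past it. Neuron and glia markers were lower for 5 of 6 (median -0.57), and 1 fell. Lung epithelium markers were lower for 2 of 3 and cardiac muscle markers for 4 of 7, with 0 past the threshold. Endothelial markers were higher for 7 of 10 (median 0.12) and erythroid markers for 3 of 4 (median 0.23), with 0 past the threshold. The part that any of these cells has in the ribosomal protein difference was not tested.

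The messages that share the TOP sequence with ribosomal proteins had differences of the same sign. Of 12 other genes with TOP messages 11 were lower on Glucose (median -0.64), and 0 passed in limma at adjusted p. They included the elongation factors Eef1a1 (-0.69 ± 0.47), which brings charged tRNA to the ribosome, and Eef2 (-0.68 ± 0.27), which moves it along the message, Tpt1 (-0.77 ± 0.39) and Naca (-0.87 ± 0.26), a subunit of the complex that meets the new chain. All 4 elongation factors tested were negative, with a median of -0.63.

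Initiation factors were less one-sided. Of 27 tested 18 were negative, with a median of -0.18, and 1 passed, Eif1a, a factor of start codon selection, which rose by 2.03 ± 0.33 (adjusted p = 0.0119). Ribosome biogenesis and nucleolar genes had 21 of 36 negative and a median of -0.06, with 0 past the threshold in limma. Fbl, the methyltransferase of ribosomal RNA, came nearest, at -0.92 ± 0.23 (adjusted p = 0.0586), while Bop1, a factor of large-subunit assembly, differed by 0.64 ± 0.55. Genes that signal growth to ribosomes had 9 of 14 negative and a median of -0.12, with 0 past the threshold, among them Eif4ebp1 (-0.88 ± 0.26, adjusted p = 0.0908), Mtor (0.11 ± 0.38) and Larp1 (-0.07 ± 0.31), which binds TOP messages.

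Mitochondrial ribosomal proteins, which build a separate ribosome inside mitochondria, were negative for 50 of 54 genes with a median of -0.44. Of these 1 fell, Mrpl9 (-1.17 ± 0.26, adjusted p = 0.0409). By array their medians stood at 0.65 and 0.46 on both Con arrays of number 1 and at -0.20 and 0.01 on those of number 2, where the cytosolic members stood at 0.67 and 0.24, and at 0.23 and 0.31.

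**Figure D3:**
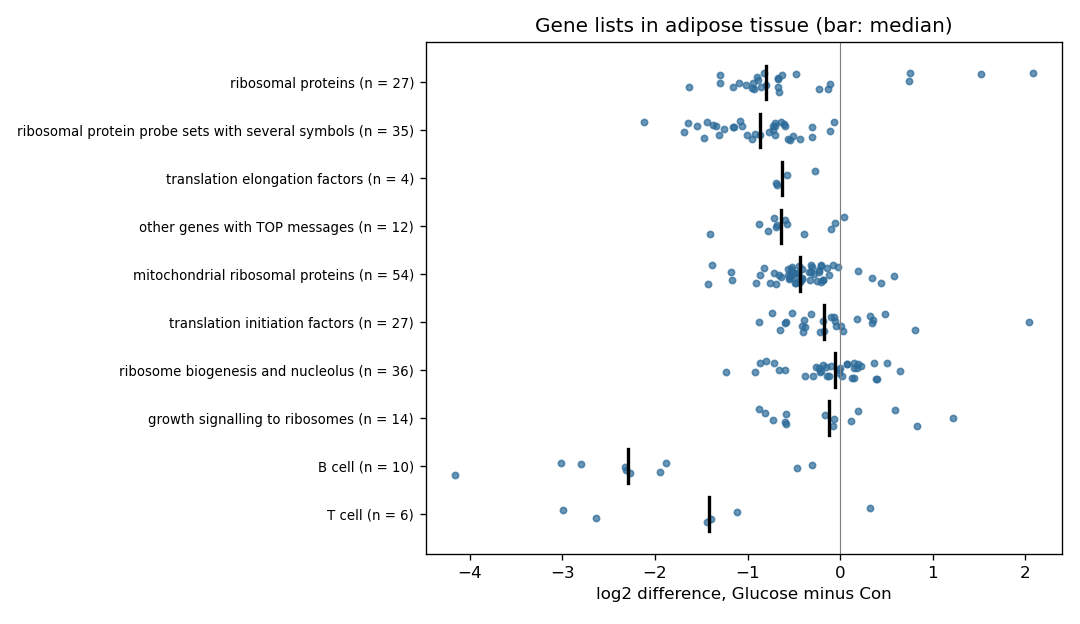
Log2 difference of Glucose minus Con in adipose tissue for the tested genes of 10 lists, with points for genes (probe sets in the second list) and a bar for the median. Cytosolic ribosomal proteins have a median of -0.81, ribosome biogenesis genes of -0.06 and B cell markers of -2.29.

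The windows around the annotated gene starts were searched for letters that transcription factors of ribosomal protein genes bind and for the pyrimidine run. RefSeq windows of 300 bases (250 before and 50 after the start, GRCm38.p6, the first listed start where a gene has several) were found for 28 of the 35 members. The letters CTTCCG, the core bound by ETS factors such as GABP, occurred on either strand in 19 of the 28 members, in 17.2% of the windows of 27025 genes and in 27.1% of those of 6576 genes on the array. An unbroken run of at least 7 C or T touching the 5 bases on either side of the start, on the gene's strand, occurred in 10 of 28 members and in 13.5% of all genes. Such a run may lie wholly before the first transcribed base. The letters AAGATGGC, the core bound by YY1, occurred on either strand in 4 of 28 and in 2.88% of all, and TATAAA, on the gene's strand, in 3 of 28 and in 8.88%. The 6 members that passed are printed below on the gene's strand, from 40 bases before the start to the first 20 transcribed bases. Capitals mark CTTCCG on either strand, or the run of C or T at or near the start.

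Rps24 (chr14:24490638-24490697, plus strand): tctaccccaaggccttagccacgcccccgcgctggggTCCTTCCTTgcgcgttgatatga
Rps7 (chr12:28635934-28635993, minus strand): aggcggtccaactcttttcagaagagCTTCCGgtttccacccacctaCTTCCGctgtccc
Rps19 (chr7:24884552-24884611, plus strand): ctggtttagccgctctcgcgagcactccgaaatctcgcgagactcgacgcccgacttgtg
Rps3 (chr7:99483690-99483749, minus strand): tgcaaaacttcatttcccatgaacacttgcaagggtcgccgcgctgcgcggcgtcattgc
Rpl19 (chr11:98026670-98026729, plus strand): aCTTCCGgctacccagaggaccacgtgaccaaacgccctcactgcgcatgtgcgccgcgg
Rpl39l (chr16:10170188-10170247, plus strand): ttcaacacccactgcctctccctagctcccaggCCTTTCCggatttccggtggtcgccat

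Over the whole 300 bases CTTCCG was found for Rps7, Rpl19, Rps3 and the paralog Rpl39l, and not for Rps24 or Rps19. Rps7 shows it once before and once after the start. The pyrimidine run crosses the annotated start in Rps24, while in Rpl39l it lies wholly before the start. The genes that fell and the gene that rose therefore cannot be told apart by these letters. A match is a description of the sequence, and no binding was measured here.

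Intermittent hypoxia moved no member past the threshold in adipose tissue. Over Con and Glucose together the median of the members was 0.10 and 19 of 27 were higher with hypoxia, and in limma 0 members passed (0 at an unadjusted p under 0.05), as did 0 of 7453 probe sets (background 0.0%, with 110 at an unadjusted p under 0.05). Rps29 had the highest difference, 0.55 ± 0.28, and Rps13 the lowest, -0.46 ± 0.66, at adjusted p = 1.0 in both cases. Without the Glucose non-hypoxia array number 1 the median was -0.05 and 16 members were lower.

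Within Con, on 2 arrays a side, 21 of 27 members were higher with hypoxia, 5 were lower and Rps13 was at the floor throughout. The median was 0.20, against 0.06 over all probe sets, and in limma 0 members and 0.0% of all probe sets passed, with 1 member and 218 probe sets at an unadjusted p under 0.05. That member was Rps29, which read 249 and 239 with hypoxia and -69.0 and 134 without, a difference of 1.09 ± 0.40 (adjusted p = 1.0). Both hypoxia arrays lay above both others for 8 members, where 15.4% of all probe sets did so. The hypoxia array number 1 had the highest member median of all 8 arrays, 0.67, and number 2 stood at 0.23, beside 0.24 and 0.31 without hypoxia, so the groups' medians overlapped. Skeletal muscle fibre markers were lower with hypoxia for 17 of 17 genes there (median -1.38). The ratio for Actb was 1.70 and 1.37 with hypoxia and 0.788 and 0.942 without. The part of neither was tested. Without the hypoxia array number 1 the members' median was -0.007, with 15 lower and 11 higher.

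Within Glucose the median was -0.10, 10 of 27 members were higher and 17 lower. Without the Glucose non-hypoxia array number 2 the median was 0.23 and 20 were higher, so the direction turned. Skeletal muscle fibre markers were higher with hypoxia for 16 of 17 genes (median 1.07), and their part was not tested. In limma 0 members and 0.0% of probe sets passed, with 0 members and 159 probe sets at an unadjusted p under 0.05. The difference between the hypoxia effects of Glucose and Con was negative for 21 of 27 members, with a median of -0.36, against -0.06 over all probe sets. Single arrays decided this sign: the median was 0.07 without the Glucose non-hypoxia array number 2, with 12 members negative and 15 positive, and -0.07 without the Con hypoxia array number 1. It passed for 0 members and 0.0% of probe sets in limma, with 0 members and 246 probe sets at an unadjusted p under 0.05. For Rps3 both hypoxia arrays lay above both others in Con (12127 and 9347 against 7079 and 7807) and below both in Glucose (4064 and 4418 against 4681 and 5532). This held for 1 of 27 members in either order of direction, and for 4.88% of all probe sets. Its difference between the effects was -0.78 ± 0.45 (adjusted p = 0.999).

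Across brain, heart, lung and muscle, after quantile normalization, the members varied less than most probe sets. The range between the highest and the lowest tissue mean had a median of 0.62 log2 over the 25 members tested and 1.25 over all probe sets. It was not compared with that of other probe sets of the members' brightness, nor computed under another scaling. Lung had the highest mean for 15 members, muscle for 9, heart for 1 and brain for 0. Over all probe sets the shares were 28.8% for lung, 26.3% for muscle, 20.0% for heart and 24.9% for brain. Brain had the lowest mean for 8 members, lung for 7 and heart and muscle for 5 each. Over all probe sets 26.0% were lowest in brain, 34.4% in lung, 16.3% in heart and 23.3% in muscle. Levels below are log2 of the quantile normalized intensity with an offset added, and each is compared only with the same probe set in another tissue.

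**Figure D4:**
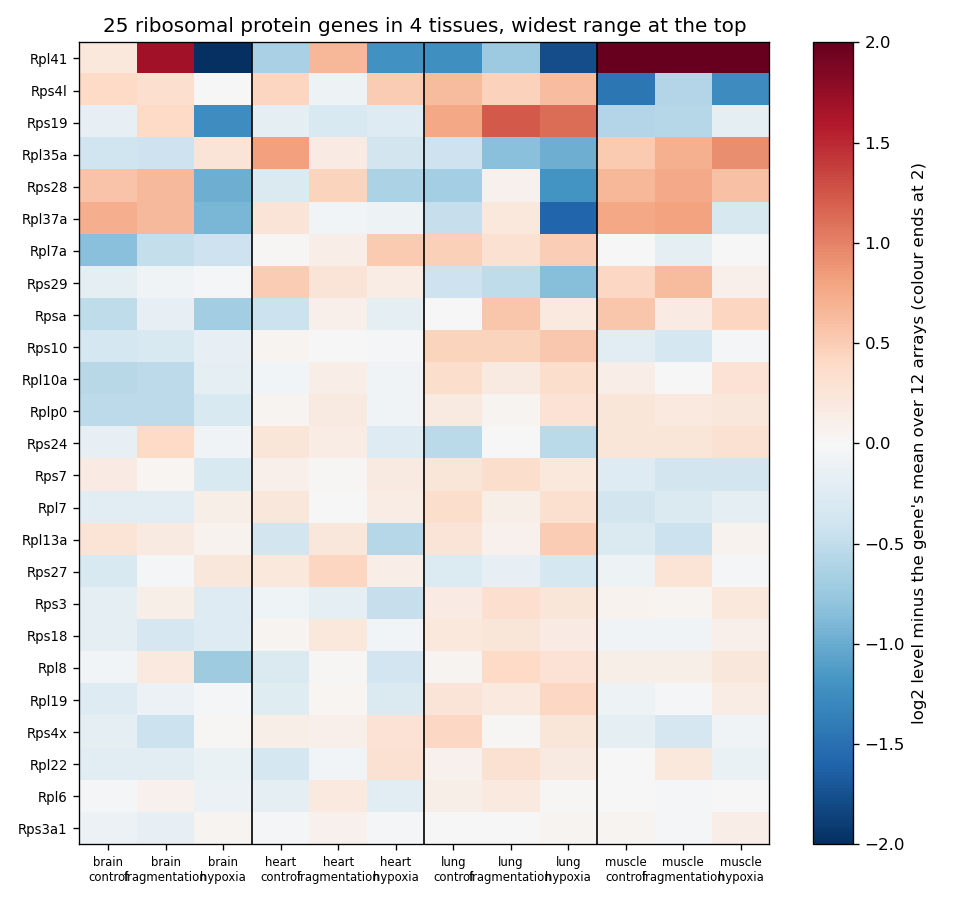
Log2 level of each of the 25 members tested on the 12 arrays of 4 tissues, minus that gene's mean over the 12 arrays, in colour from -2 to 2, with vertical lines between tissues. Rpl41, at the top, has a range of 3.46 between tissue means and is high on the 3 muscle arrays, and Rps3a1, at the bottom, has a range of 0.13.

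After quantile normalization the steadiest members, by their brightest probe set, were Rps3a1, with a range of 0.13 between tissue means, Rpl6 with 0.18, Rpl22 with 0.38 and Rps4x with 0.43. Dimmer probe sets were not steady for Rpl22 and Rps4x. That of Rpl22 differed by -0.80 in lung and 0.505 in muscle from the mean of the other tissues. Those tested of Rps4x differed by 1.445 and 1.35 in muscle. Rps3a1, a small-subunit protein, lay at 13.74, 13.69 and 13.90 in brain, 13.82, 13.94 and 13.84 in heart, 13.87, 13.86 and 13.91 in lung and 13.91, 13.82 and 13.98 in muscle, in the order control, fragmentation and hypoxia. Its 4 tissues overlapped throughout apart from the lower brain control and fragmentation arrays. On the deposited scale Rps3a1 read 9667 in brain, 11949 in heart, 12295 in lung and 17456 in muscle on the control arrays. The highest intensities of those arrays were 12880, 14210, 15030 and 20460. On the fragmentation arrays it read 11501, 15325, 14545 and 13888. The part of quantile normalization in its narrow range was not tested. Rpl6, of the large subunit, had tissue means of 12.95 ± 0.10 in brain, 12.91 ± 0.23 in heart, 13.08 ± 0.09 in lung and 12.95 ± 0.02 in muscle (SD over control, fragmentation and hypoxia, n = 3), which do not differ beyond that spread.

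Rpl41, a very short basic peptide, had the widest range. It lay at 11.28, 12.74 and 7.41 in brain, 10.42, 11.73 and 9.86 in heart, 9.83, 10.33 and 9.29 in lung and 13.33, 13.37 and 13.15 in muscle. Muscle was above every other array, at 2.96 ± 0.62 over the mean of the other tissues (adjusted p = 0.0031), while the brain arrays lay furthest apart. The order of the others, heart at 10.67 ± 0.96, brain at 10.48 ± 2.76 and lung at 9.82 ± 0.52 (SD over the 3 conditions, 1 array each), lay within that spread.

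Rps19 was the clearest member of lung. It read 11.33, 11.89 and 10.24 in brain, 11.29, 11.18 and 11.23 in heart, 12.27, 12.72 and 12.61 in lung and 10.91, 10.92 and 11.31 in muscle. The 3 lung arrays lay above all 9 others, at 1.39 ± 0.27 (adjusted p = 0.00144), and brain, heart and muscle overlapped. Rps4l was the clearest low member of muscle, at 8.59, 9.45 and 8.77 there, 10.42, 10.37 and 10.04 in brain, 10.47, 9.93 and 10.55 in heart and 10.66, 10.49 and 10.66 in lung. All 3 muscle arrays lay below all others, at -1.46 ± 0.21 (adjusted p = 0.000341).

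In brain 6 members passed against the mean of the other 3 tissues, all of them lower, where 49.4% of all probe sets passed and 25.9% were lower. They were Rpl7a (-0.76 ± 0.14, adjusted p = 0.000993), Rpsa (-0.61 ± 0.17), Rplp0 (-0.60 ± 0.12), Rpl10a (-0.57 ± 0.13), the protein of the L1 stalk through which used tRNA leaves, Rps10 (-0.36 ± 0.12) and Rps18 (-0.36 ± 0.12). Of the 25 members 20 were lower in brain, with a median of -0.17, against -0.08 over all probe sets. Rplp0 lay at 13.12, 13.13 and 13.35 in brain and between 13.58 and 13.94 on the other 9 arrays, so brain was below every other array. Without the brain hypoxia array 3 members passed and 16 were lower, and with median scaling in place of quantile normalization 10 passed at a median of -0.48.

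In heart 1 member passed, Rps29, which was higher (0.40 ± 0.14, adjusted p = 0.0434), where 38.4% of all probe sets passed and 19.1% were higher. It did not pass under median scaling, without the filter on dim probe sets, or without the control or the hypoxia arrays, and 5 members passed without the brain hypoxia array.

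In lung 15 of 25 members passed, 8 higher and 7 lower, where 61.8% of all probe sets passed, 28.1% higher and 33.7% lower. The higher members were Rps19, Rps4l (0.76 ± 0.21), Rps10 (0.64 ± 0.12, adjusted p = 0.000999), Rpl7a (0.56 ± 0.14), Rpl19 (0.39 ± 0.13), Rpl10a (0.38 ± 0.13), Rps7 (0.35 ± 0.13) and Rpl7 (0.35 ± 0.12). The lower members were Rpl41 (-1.66 ± 0.62), Rpl35a (-0.99 ± 0.25), Rpl37a (-0.82 ± 0.24), Rps28 (-0.79 ± 0.23), Rps29 (-0.79 ± 0.14, adjusted p = 0.000835), Rps24 (-0.48 ± 0.16) and Rps27 (-0.35 ± 0.14, adjusted p = 0.05). Rpl35a, at 8.38 in lung, passed the filter on dim probe sets only through other tissues. The counts were 4 without the control arrays and 8 without the fragmentation or the hypoxia arrays, in designs with fewer arrays. Rps10 lay at 13.49, 13.50 and 13.60 in lung and between 12.70 and 13.10 elsewhere, and Rps29 at 9.55, 9.45 and 9.10 in lung and between 9.77 and 10.59 elsewhere, so both were apart from every other tissue.

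The direction in lung depended on the probe set for several members. Of the 7 genes with more than 1 probe set tested, 5 had probe sets of opposite sign in lung. For Rpl19 the brighter probe set differed by 0.39 and the other by -1.70 (adjusted p = 6.4e-05), for Rpl22 by 0.26 and -0.80, for Rps4l by 0.76 and -0.67, and for Rps4x by 0.30 and by -0.83 and -1.36. Rps28 went the other way, with -0.79 on its brighter probe set and 0.55 on each of 2 others. Both probe sets of Rpl10a were higher in lung and both of Rps24 lower. With all probe sets of a gene averaged, Rpl19 (-0.66) and Rps28 (0.10) changed sign in lung. In muscle the 2 probe sets of Rps4l had opposite signs too, at -1.46 on the brighter and 0.70 on the other. The same held there for Rps4x, at -0.27 on the brightest and 1.445 and 1.35 on others, for Rpl10a, at 0.18 and -0.36, and for Rps28. The brighter probe set of Rpl19 differed by 0.003 in muscle and the other by 1.07. The 3′ to 5′ ratio of Actb was lower on the 3 lung arrays than on every other array but that of brain with hypoxia, and its part in these differences was not tested.

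**Figure D5:**
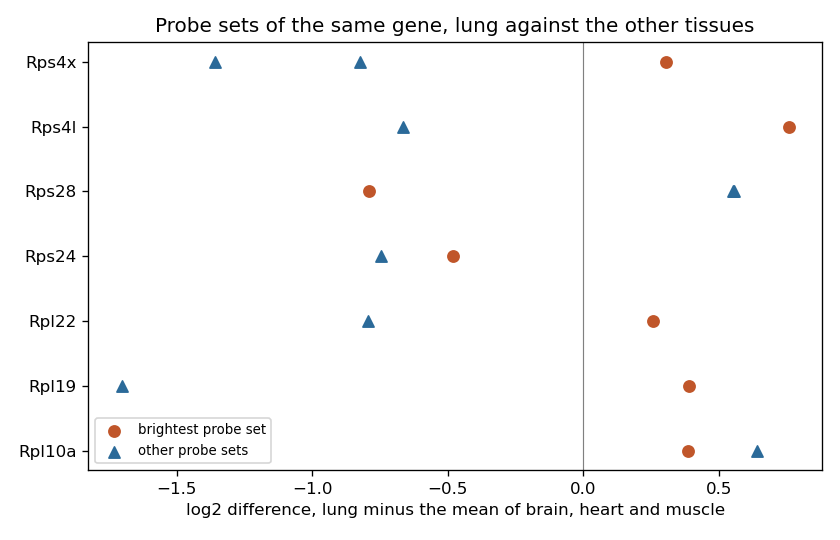
Log2 difference of lung minus the mean of brain, heart and muscle for the 7 members with more than 1 probe set tested, with circles for the brightest probe set and triangles for the others. The probe sets of Rps4x, Rps4l, Rps28, Rpl22 and Rpl19 lie on both sides of 0.

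In muscle 8 members passed, 5 higher and 3 lower, where 52.3% of all probe sets passed, 24.9% higher and 27.5% lower. Higher were Rpl41, Rpl35a (0.96 ± 0.25), Rps28 (0.89 ± 0.23), Rps29 (0.51 ± 0.14) and Rpsa (0.51 ± 0.17), and lower were Rps4l, Rps7 (-0.44 ± 0.13) and Rpl7 (-0.37 ± 0.12). Rpl41, Rpl35a, Rps28 and Rps29 were thus called higher in muscle and lower in lung, and Rps4l, Rps7 and Rpl7 lower in muscle and higher in lung. Rpl35a passed the filter by its highest tissue mean, 9.84 in muscle, with 9.32 in heart, 8.94 in brain and 8.38 in lung. Rps14, with its highest mean of 9.27 in muscle, did not pass, so the calls of Rpl35a are tied to the filter. The other 2 probe sets of Rps28, of which 1 is about as bright, differed by -0.05 and -0.07 in muscle, and with all 3 averaged the difference was 0.26 (adjusted p = 0.196). For Gapdh the signal at the 3′ end over that at the 5′ end was 0.0261, 0.264 and 0.00899 on the muscle arrays for control, fragmentation and hypoxia and 0.136 on the heart hypoxia array, against 0.821 to 0.915 in lung, and its part was not tested. Each of these contrasts holds the other tissue in its reference, so they are not independent. Under median scaling the members' median in muscle moved from 0.06 to 0.39 and Rpl7 from -0.37 to 0.02, so the sign of Rpl7 there rests on the scaling, and 10 members were higher and 1 lower. The shares of members in the 4 tissues that passed were near or below those of all probe sets.

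Sleep fragmentation and hypoxia moved no member past the threshold over the 4 tissues. In limma 0 of 25 members and 0.0% of all probe sets passed for fragmentation minus control, hypoxia minus control or hypoxia minus fragmentation. At an unadjusted p under 0.05 there were 0, 2 and 3 members and 336, 371 and 743 probe sets. The members' medians were 0.05, -0.02 and -0.05. Rpl37a, a zinc finger protein of the large subunit, had the smallest p in both comparisons with hypoxia, at -1.05 ± 0.26 against control (adjusted p = 0.908) and -1.14 ± 0.26 against fragmentation (adjusted p = 0.467). It lay at 13.24, 13.16 and 11.60 in brain, 12.76, 12.45 and 12.41 in heart, 12.04, 12.72 and 10.92 in lung and 13.28, 13.32 and 12.18 in muscle, so the hypoxia array was the lowest of its tissue in all 4. Rpl41 had the most negative difference between hypoxia and control, at -1.29 ± 0.66, and Rps28 followed Rpl37a at -0.62 ± 0.25, none of them past the threshold.

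Within a tissue there is 1 array per condition and no test, and members 2-fold or more apart were counted. In brain 4 of 25 members were that far apart between hypoxia and control, all lower with hypoxia, where 6.13% of all probe sets were: Rpl41 (-3.87), Rpl37a (-1.64), Rps28 (-1.55) and Rps19 (-1.08). The other 2 probe sets of Rps28 differed by -0.02 and -0.48 there. The brain hypoxia array is the one with the higher scale and the low 3′ to 5′ ratio of Actb, and their part was not tested. In the remaining comparisons with control at most 1 member was 2-fold apart. It was Rpl41 with fragmentation in brain (1.47, background 4.0%) and heart (1.31, background 4.2%), Rpl35a with hypoxia in heart (-1.19, background 5.98%), and Rpl37a with hypoxia in lung (-1.13, background 2.94%) and muscle (-1.10, background 6.94%). With fragmentation 0 members were 2-fold apart in lung (background 1.69%) and in muscle (background 7.92%). Rpl41, Rpl37a, Rpl35a, Rps28 and Rps19, which make up all of these counts, are 5 of the 6 members with the widest range between tissues.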

How the data were processed

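The values are intensities, 1 per probe set and array, as the authors deposited them on a linear scale. How they were made from probe signals is not given in the sources used. Members, gene lists and tests were chosen with earlier results of these data known. Of 12488 probe sets 66 are platform controls and were left out, 10833 have 1 symbol, 396 several and 1193 none in the platform annotation, and no symbol needed an update. The offset is the 20th percentile of the positive values, 97.7. Adipose values were raised to it where lower and taken to log2 with the deposited scaling kept. The other 12 arrays were quantile normalized and taken to log2 after adding it. Probe sets had to exceed the 40th percentile, by their mean in adipose tissue and by the highest tissue mean elsewhere.

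Contrasts were fitted with limma 3.58.1 in R 4.3.3 (lmFit and eBayes, two-sided, with the threshold at 0.05 after Benjamini-Hochberg adjustment over the 7453 probe sets of a fit): group means in adipose tissue, tissue and condition as terms elsewhere. The fits were tested on simulated data. The number of arrays limits the precision. Same-lettered arrays of different groups correlated in their deviations at -0.137 to 0.415, not above 0.1 in every pair, so the letters were not used to pair arrays. The value was 0.181 between the Con groups and 0.415 between the Glucose groups, where letter and code coincide. They also coincide between Con hypoxia and the Glucose groups, where it was -0.046 with Glucose hypoxia and -0.11 with Glucose non-hypoxia. Named in the text are the members past a threshold, the 4 highest, 4 lowest and 4 smallest p of a contrast, the widest and narrowest over tissues, those 2-fold apart within a tissue, paralogs with their parents, Rplp0, Rpsa, members whose probe sets disagree and up to 4 genes of another list. Sequences are RefSeq's. Alternatives were another offset, normalization, filter or prior, a block, arrays left out and the mean of all probe sets of a gene. Fits within the codes s2 and s4 and the split at a log2 level of 12 were added after seeing the data.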

Additional observations from a re-analysis of the deposited data

Results flagged for a closer look

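Rps3, a protein of the small subunit, is given here because its hypoxia arrays lay on opposite sides in Con and Glucose. In Con both hypoxia arrays read higher than both others, and in Glucose both read lower. The hypoxia effect of Glucose minus that of Con was -0.78 on the log2 scale (standard error 0.45). By limma, over all probe sets, the adjusted p of this difference was 0.999, so it did not pass. Of the 27 members tested in adipose tissue 1 had opposite directions without overlap, or 3.7%, where 4.88% of all 7453 probe sets did.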

How the results depend on the processing

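In Glucose minus Con, 6 members passed. The count was 3 after quantile normalization, 2 with the replicate block on the title letter, 3 with the code s2 or s4 as a block, 0 without both Con arrays of number 1, 0 within s2, 0 within s4, and 0 to 4 with 1 array left out. Offsets at the 10th and 30th percentile, no filter, median scaling, the mean of all probe sets and other priors kept it within 1.5 times. The hypoxia and condition contrasts kept 0. Signs turned in Glucose minus Con for Rpl41 (0.11 within s2), Rpl22 (-0.49 to 0.03 with 1 array left out, 0.029 without the Glucose hypoxia array number 1, 0.11 within s2), Rps27 (-0.43 to 0.15 with 1 array left out, positive without the Con hypoxia array number 1; 0.26 without both of number 1, 0.075 within s2), Rps28 (0.42 within s2) and Rpl7l1 (-0.33 to 0.11 with 1 array left out, positive without the Con or the Glucose hypoxia array number 2; 0.33 within s4), none of which had passed. In the tissues, signs turned for Rpl19 (-0.66) and Rps28 (0.10) in lung with the mean of all probe sets, and for Rpl7 in muscle with median scaling (0.022, and 0.024 on non-members). The cause was not tested.

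In brain 10 members passed with median scaling, 10 with scaling on non-members, 3 without the brain hypoxia array, and 3 without control or without hypoxia. In heart 0 passed without the filter, with either median scaling, without control or without hypoxia, 5 without the brain hypoxia array and 2 with other priors. In lung 4 passed without control and 8 without fragmentation or without hypoxia, and in muscle 4 without control or without fragmentation. Between fragmentation and control in lung 1 member was 2-fold apart with median scaling.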
